A study of Mus musculus with 5 samples.

Results

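Zfp521, Meis1, Pknox2, Otx1, Map2, Nell2 and Mdga1 are genes of neural commitment, brain patterning and neurons. Their RNA was compared here between mouse embryonic stem cells lacking the −45 super-enhancer and wildtype cells. The 7 genes were chosen by symbol from the 24538 gene names of the deposited table, and the choice used their deleted-minus-wildtype differences in these libraries. Their levels and differences are therefore a description, and no test is given for any of them. The series comprised 2 libraries of polyadenylated RNA from cells with the −45 super-enhancer deleted (deleted 1 and 2) and 3 from wildtype cells (wildtype 1 to 3). Super-enhancers are clusters of densely bound enhancers, and by the series title this one controls the pluripotency gene Nanog. Per the labels, cells of the series were kept for 6 days in ethanol vehicle or 4-hydroxytamoxifen. Which library received which agent, and whether replicates were separate clones or cultures, is not stated, so any p-value reflects the spread between these libraries alone, possibly a technical one. A deletion library 3, implied by the 3 replicates that the design gives each condition, was not analysed here.

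When pluripotent cells take the neural path, transcription factors first set neural identity, homeodomain factors then pattern the neural tube, and genes of the neuronal cytoskeleton, axon and synapse are expressed last. Zfp521 encodes a zinc-finger factor that promotes the entry of mouse embryonic stem cells into the neural lineage. Meis1 and Pknox2 encode homeodomain factors of the TALE class, named for a loop extension in the homeodomain, which bind DNA with PBX partners. Otx1 encodes a homeodomain factor of the developing forebrain and midbrain. Map2 encodes a microtubule-associated protein of dendrites, Nell2 a secreted glycoprotein of neurons that binds the axon guidance receptor ROBO3, and Mdga1 a membrane-anchored immunoglobulin-family protein that binds neuroligins at synapses.

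The homeoboxes, the coding sequences of the DNA-binding homeodomain, are shown for the 3 homeodomain members because Meis1 and Pknox2 share this class and lay on opposite sides of the wildtype level. They were read from GENCODE vM21 transcripts (GRCm38), 5′ to 3′ on the coding strand. Capitals mark the codons of the tryptophan, phenylalanine, variable residue and asparagine of the recognition helix.
Pknox2: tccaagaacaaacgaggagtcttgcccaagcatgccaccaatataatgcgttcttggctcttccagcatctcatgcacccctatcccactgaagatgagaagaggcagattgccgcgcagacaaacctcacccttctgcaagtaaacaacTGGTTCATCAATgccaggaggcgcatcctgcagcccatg
Meis1: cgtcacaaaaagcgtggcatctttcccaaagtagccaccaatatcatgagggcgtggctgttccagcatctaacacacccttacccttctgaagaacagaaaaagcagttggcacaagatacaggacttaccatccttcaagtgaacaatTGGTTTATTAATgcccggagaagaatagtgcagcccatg
Otx1: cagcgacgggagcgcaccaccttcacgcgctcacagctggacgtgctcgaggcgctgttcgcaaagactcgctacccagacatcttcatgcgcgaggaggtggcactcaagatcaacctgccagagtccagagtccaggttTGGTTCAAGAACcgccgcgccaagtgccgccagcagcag

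The Pknox2 and Meis1 homeoboxes were 69.8% identical over 189 bases, and the residues they encode were 71.4% identical over 63 codons. Over the last 111 bases, after the loop extension, Meis1 and Otx1 were 39.6% identical, as were Pknox2 and Otx1. In GRCm38 the Pknox2 homeobox lies on the minus strand of chromosome 9 in coding parts of 3 exons, at chr9:36909629-36909703, chr9:36895311-36895387 and chr9:36894462-36894498. The Meis1 homeobox lies on the minus strand of chromosome 11, also over 3 exons, at chr11:18941659-18941733, chr11:18905689-18905765 and chr11:18885615-18885651. The Otx1 homeobox lies on the minus strand of the same chromosome over 2 exons, at chr11:21998370-21998507 and chr11:21997017-21997058.

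Counts were summed over exon bins, the pieces into which the deposited table divides each gene's exons, and totalled 93574214 and 99133883 in the deleted and 114838177 to 213042064 in the wildtype libraries. Levels are given in CPM, which are TMM-normalized counts per fixed library size, and 1 count was worth about 0.00469 CPM in the deepest and 0.0107 CPM in the shallowest library. Errors of levels and shares are SD over libraries, with n = 2 for deleted and n = 3 for wildtype. Those of log2 fold changes are SE, computed as the absolute log2 fold change over the root of the F statistic of edgeR's quasi-likelihood test. For the members this SE is given as a description only. Rows under symbols held 0.328% to 0.375% of counts, most others being under assembly IDs not paired with symbols, so reads of a member may be divided with an overlapping ID and its level understated. None of 20 pluripotency markers, Nanog among them, had a row under its symbol. The stem cell identity and the targeted locus were therefore not checked here. Without wildtype 3, the deepest library, 4197 genes were called higher and 4150 lower over the whole table, against 3245 and 3208 with it. In bulk RNA, fewer cells expressing a gene and less RNA per cell cannot be told apart.

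Among the transcription factor genes, Zfp521 was the member with the largest difference. It stood at 3.70 and 3.85 CPM in deleted 1 and 2, against 1.25, 1.02 and 1.26 CPM in wildtype 1, 2 and 3. Both deleted libraries lay above every wildtype library, with a gap far wider than the spread within either group. The group means were 3.77 ± 0.105 CPM in deleted and 1.18 ± 0.134 CPM in wildtype cells, a fitted log2 fold change of 1.67 ± 0.12, or 3.18-fold. Under the alternatives tried it ranged from 1.57 to 1.73.

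Meis1, whose product is a partner of HOX and PBX proteins, was also higher in the deleted cells but at a low level. It stood at 0.439 and 0.434 CPM in the deleted libraries (41 and 43 counts) and at 0.249, 0.228 and 0.301 CPM in the wildtype ones (31, 26 and 65 counts). The groups did not overlap, and wildtype 3 was the closest to the deleted libraries. The fitted log2 fold change was 0.72 ± 0.22, a 1.65-fold difference. In its most counted bin alone it was 0.14 ± 0.42, where the error spanned 0.

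Pknox2, the other TALE member, was lower in the deleted cells. Levels were 1.11 and 1.13 CPM in deleted, against 2.49, 2.53 and 2.68 CPM in wildtype libraries. Replicates lay close together in both groups, and the groups were well apart. Means were 1.12 ± 0.0114 CPM in deleted and 2.57 ± 0.102 CPM in wildtype cells. The log2 fold change of −1.20 ± 0.12 corresponds to a level 2.29-fold lower, and ranged from −1.23 to −1.15 under the alternatives.

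Otx1 was the least counted member, with 12 and 8 counts in deleted and 25, 27 and 43 counts in wildtype libraries. It was at 0.129 and 0.0808 CPM in deleted and at 0.201, 0.236 and 0.199 CPM in wildtype libraries. The groups did not overlap, but the deleted libraries differed more from each other than the wildtype ones did. The log2 fold change was −1.01 ± 0.34, and it was −1.37 without deleted 1 and −0.73 without deleted 2, so its size depends on single libraries of about 10 counts. Otx1 was also the 1 member of 7 that met the low-count filter in the wildtype libraries alone.

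Of the neuronal genes, Nell2 was higher in the deleted cells. It stood at 3.30 and 3.38 CPM in deleted and at 1.45, 1.79 and 1.76 CPM in wildtype libraries, with no overlap. Means of 3.34 ± 0.0573 CPM in deleted and 1.67 ± 0.186 CPM in wildtype cells gave a log2 fold change of 1.0 ± 0.12, a 2.0-fold difference.

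Mdga1 was lower, at 1.05 and 0.949 CPM in deleted against 2.49, 2.79 and 3.11 CPM in wildtype libraries. No library of one group reached the other. Means were 1.0 ± 0.0717 CPM in deleted and 2.80 ± 0.311 CPM in wildtype cells. The log2 fold change of −1.49 ± 0.14 was the largest among the members that were lower, a level 2.81-fold lower.

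Map2 was the member whose groups overlapped. It stood at 2.71 and 3.14 CPM in deleted and at 2.31, 2.28 and 2.79 CPM in wildtype libraries, so that wildtype 3 lay above deleted 1. The log2 fold change was 0.24 ± 0.13, with 0.34 without wildtype 3, 0.34 without deleted 1 and 0.11 without deleted 2.

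**Figure D1:**
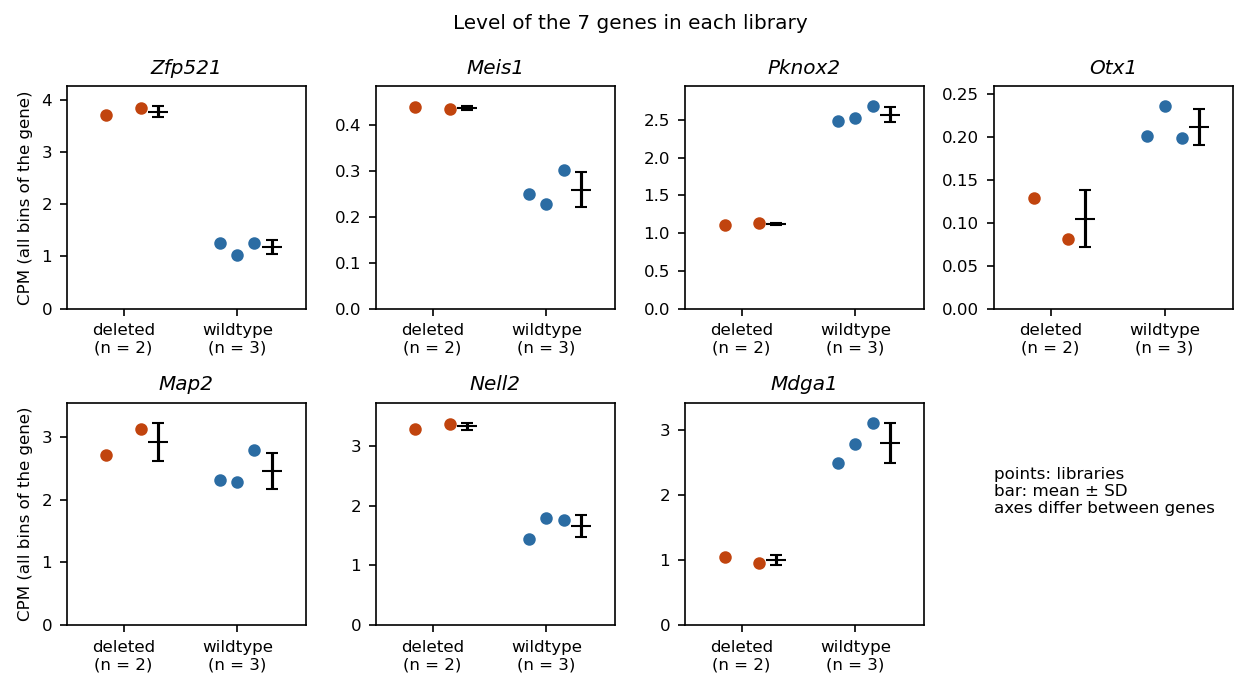
CPM of each of the 7 genes (y axis, each panel on its own scale from 0) in the deleted and wildtype libraries (x axis); points are libraries and bars the mean ± SD. Zfp521, Meis1 and Nell2 are higher and Pknox2, Otx1 and Mdga1 lower in both deleted libraries than in every wildtype library, while Map2 overlaps.

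In all, 6 of 7 members did not overlap between groups, 3 higher and 3 lower in the deleted cells. For comparison, 57.0% of the 3591 tested symbols did not overlap, 32.8% higher and 24.2% lower, and 32.1% passed edgeR's quasi-likelihood test at a Benjamini-Hochberg adjusted p under 0.05. Over all 16259 tested genes, those under assembly IDs included, 39.7% passed, 20.0% higher and 19.7% lower. Because the members were chosen from this contrast, their count says nothing beyond the choice.

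Levels of different genes were compared per length, as CPM per kilobase of inner exons, leaving out the first and last exon, whose ends vary most between gene models, with lengths from the exon pairing described further on. In the deleted cells Nell2 was highest at 1.25 ± 0.029 CPM per kilobase. Map2 followed at 0.749 ± 0.185 and Zfp521 at 0.642 ± 0.0387, a pair that did not differ beyond their spread. Pknox2 at 0.396 ± 0.0256 and Mdga1 at 0.327 ± 0.0275 came next, then Meis1 at 0.225 ± 0.015 and Otx1 at 0.0496 ± 0.0366.

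In the wildtype cells the order was different, with Mdga1 at 0.901 ± 0.12 and Pknox2 at 0.890 ± 0.0534 CPM per kilobase at the top and within each other's spread. Nell2 at 0.620 ± 0.0916 and Map2 at 0.587 ± 0.103 were likewise indistinguishable. Zfp521 stood at 0.207 ± 0.017, and Otx1 at 0.140 ± 0.0453 and Meis1 at 0.116 ± 0.0251 did not differ beyond their spread. Zfp521 thus ranked below Pknox2 and Mdga1 in wildtype and above both in deleted cells.

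The exon bins show where along each gene the counts lay. For every member a protein-coding GENCODE vM21 transcript has as many exons as the table has bins, 91 in all, and bins were paired with exons in genomic order. Where several transcripts had that number, as for Otx1, Map2 and Nell2, the one whose exon lengths best followed the bin counts was used. The pairing is an inference, since the table gives no coordinates. The Spearman correlation between bin counts and paired exon lengths was lowest for Otx1 (0.29) and Mdga1 (0.32) and highest for Map2 (0.89). Levels per kilobase rest on these paired lengths. Of the 91 bins, 85 had at least 10 counts over the 5 libraries and are described. Of these, 32 were higher and 29 lower in both deleted libraries than in every wildtype library. Among all such bins of symbols 37.0% did not overlap, 20.6% higher and 16.4% lower, but bins of 1 gene share its difference and reads that span them, so they are not independent.

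All 8 bins of Zfp521 were higher in the deleted cells without overlap, with log2 ratios of mean CPM between 1.49 and 1.95. The bin paired with exon 4, of 3353 bases, had 149 and 170 counts in deleted and 74, 57 and 129 counts in wildtype libraries. Of the counts of Zfp521 it held 43.9% ± 1.01 in deleted and 47.9% ± 0.746 in wildtype cells. The bin paired with the last exon, of 2012 bases, held 31.5% ± 2.60 in deleted and 29.4% ± 5.34 in wildtype cells. Only 3 of the 8 bins had at least 10 counts in every library. The bin paired with exon 2 had 4 and 2 counts in deleted against 2, 0 and 2 counts in wildtype libraries. The higher level was seen in every bin, but in the thinly counted ones it rests on few counts.

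Nell2 had 20 described bins, each with a higher mean in the deleted cells and 19 without overlap. Their log2 ratios ran from 0.50 to 1.54. The last exon, paired with 222 bases, held 9.02% ± 0.0959 of counts in deleted and 9.77% ± 3.25 in wildtype cells.

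In Mdga1 each of the 16 bins had a lower mean in the deleted cells, 15 of them without overlap. The bin paired with exon 9, of 288 bases, had 1 and 0 counts in deleted against 6, 16 and 33 counts in wildtype libraries. Its neighbour, paired with exon 8, had 11 and 5 counts in deleted against 13, 12 and 38 counts in wildtype libraries and was the bin whose groups overlapped. The bin paired with the last exon, 4442 bases long in GENCODE, held only 9.89% ± 0.445 of counts in deleted and 10.8% ± 1.67 in wildtype cells. The deposited bin may be shorter than that exon.

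Pknox2 was lower in each of 13 bins, 11 without overlap, but not evenly along the gene. The bins paired with exons 1, 2 and 3 had log2 ratios of −2.59, −2.78 and −2.85, while the other 10 lay between −1.63 and −0.58. Together the first 3 exons had 5 and 2 counts in deleted, against 31, 31 and 48 counts in wildtype libraries. They held 4.81% and 1.79% of the gene's counts in deleted, against 10%, 10.7% and 8.28% in wildtype libraries. The other 10 exons had 99 and 110 counts in deleted against 279, 258 and 532 counts in wildtype libraries, a log2 ratio of −1.10. The split into the first 3 exons and the rest was made after these values were seen. In the other 6 members the share of the first 3 exons overlapped between the groups.

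**Figure D2:**
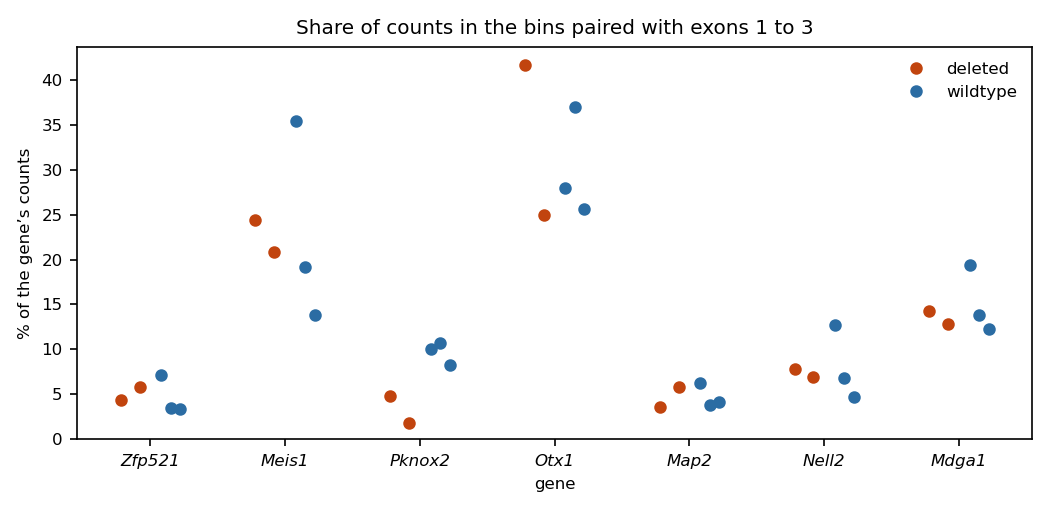
Share of each gene's counts (y axis, percent) in the bins paired with exons 1 to 3, for the 7 genes (x axis); points are libraries, deleted in orange on the left and wildtype in blue on the right of each pair. For Pknox2 the deleted libraries sit at 4.81% and 1.79%, below the wildtype libraries at 8.28% to 10.7%, and for the other genes the groups overlap.

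The homeobox bins of Pknox2 followed the gene. The bins paired with exons 10, 11 and 12 had 8 and 9, 3 and 5, and 2 and 7 counts in deleted 1 and 2. In wildtype 1, 2 and 3 they had 15, 14 and 37, then 13, 15 and 32, then 15, 14 and 34 counts. CPM of all 3 bins were lower in both deleted libraries than in every wildtype library.

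The homeobox bins of Meis1 were thinly counted. The bin paired with exon 9, of which all 77 bases belong to the homeobox printed above, had 0 counts in both deleted libraries and 3, 4 and 3 counts in wildtype libraries. A count of 0 over both deleted libraries allows up to 3 counts, or 0.0156 CPM for the group, against a wildtype mean of 0.0243 CPM. The wildtype mean was 1.56-fold that limit. The mean itself rests on 10 counts in all, whose counting error is not covered, so no bound on the difference is given. The flanking homeobox bins, paired with exons 8 and 10, had 3 and 7, and 3 and 1 counts in deleted against 5, 2 and 6, and 1, 3 and 4 counts in wildtype libraries, and both overlapped.

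Of 9 described Meis1 bins, 8 had a higher mean in the deleted cells, 3 of them without overlap. The last exon, its most counted bin, had 9 and 10 counts in deleted and 9, 7 and 26 counts in wildtype libraries, and overlapped. The other 12 exons together had 32 and 33 counts in deleted against 22, 19 and 39 counts in wildtype libraries. These stood at 0.338 ± 0.00694 CPM in deleted and 0.175 ± 0.00738 CPM in wildtype cells, without overlap and with a log2 ratio of 0.95. Wildtype 3, the wildtype library nearest the deleted ones in the whole gene, lay with the other wildtype libraries over these 12 exons.

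Each of the 4 described Otx1 bins had a lower mean in the deleted cells, 2 of them without overlap. The bins paired with exons 1 and 2 overlapped, with log2 ratios of −0.13 and −0.29. Otx1 had most of its counts in its last exon, with 7 and 6 counts in deleted against 18, 15 and 28 counts in wildtype libraries. That bin held 66.7% ± 11.8 of counts in deleted and 64.2% ± 8.26 in wildtype cells. The bin that holds most of its homeobox, paired with exon 4, had 0 counts in both deleted libraries and 0, 2 and 4 counts in wildtype libraries, too few for any comparison.

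For Map2 the last exon, of 3237 bases in the paired transcript, held 58.3% ± 7.48 of counts in deleted and 60.2% ± 1.89 in wildtype cells. Its counts were 161 and 165 in deleted and 175, 161 and 350 in wildtype libraries, or 1.70 ± 0.0423 CPM in deleted against 1.48 ± 0.122 CPM in wildtype cells, and its groups did not overlap. Of 15 bins, 13 had a higher mean in the deleted cells, and 13 overlapped between the groups.

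**Figure D3:**
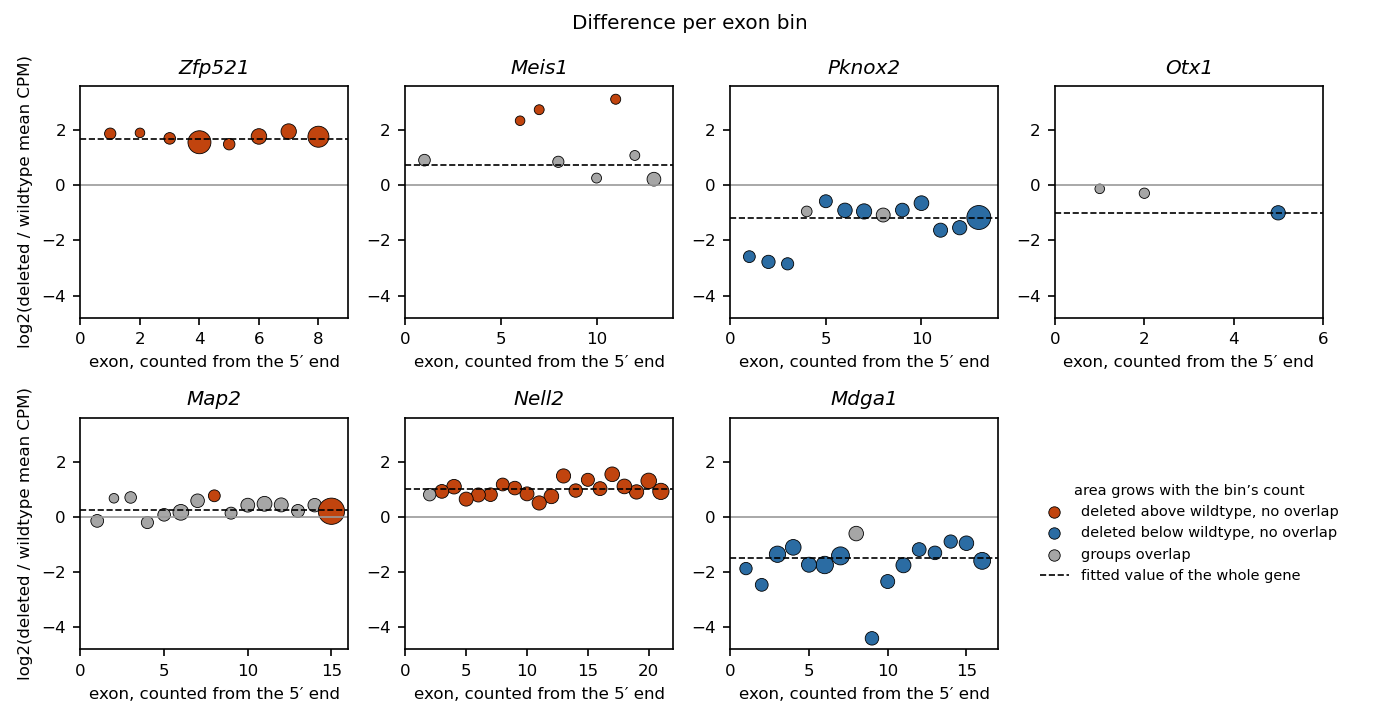
Log2 ratio of mean CPM, deleted over wildtype (y axis), for each described exon bin against its exon number from the 5′ end (x axis); points are bins, larger where counts are higher, coloured by whether the groups overlap, and dashed lines are the fitted values of whole genes. Bins of Zfp521 and Nell2 lie around their gene's value, exons 1 to 3 of Pknox2 lie below it, the lowest Mdga1 point rests on 1 count in the deleted libraries, and 2 bins with no count in them (exon 9 of Meis1, exon 3 of Otx1) are not drawn.

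To place the members among genes of like function, other genes in 7 neural and neuronal lists were examined in the fit over all genes. The lists hold 376 symbols besides the members. Some genes are listed under both an older and a newer symbol, such as Odz1 and Tenm1, so the genes are fewer. Of the 376 symbols, 245 had a row, 7 of them without a count in any library, and 138 were tested. In the deleted cells 22 were higher and 19 lower at an edgeR adjusted p under 0.05, together 29.7% of those tested, against 32.1% of all tested symbols. Higher genes made up 15.9% against 19.0% of all tested symbols, and lower genes 13.8% against 13.1%. The median log2 fold change was −0.05, beside 0.07 over all tested symbols. The counts fell to 14 higher and 10 lower without deleted 1 and to 12 and 12 without deleted 2. Of the tested genes, 6 met the low-count filter in the deleted libraries alone, 2 of them called higher, and 20 in the wildtype libraries alone, 5 of them called lower.

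**Figure D4:**
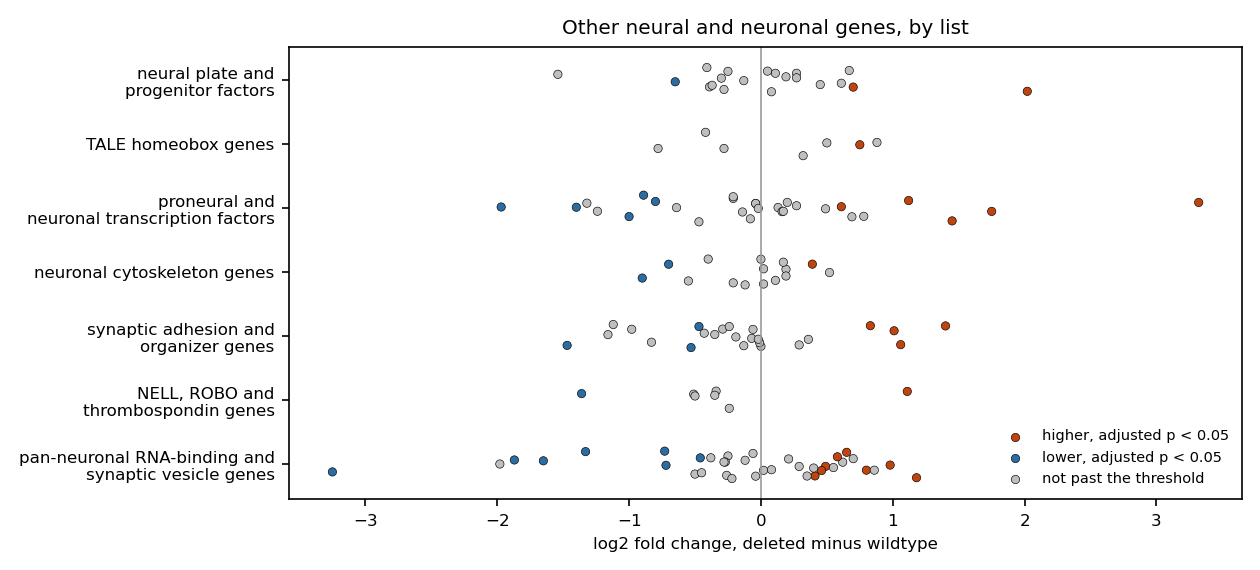
Log2 fold change, deleted minus wildtype (x axis), of every tested gene in the 7 lists (y axis), members left out; each point is a gene, orange where higher and blue where lower at an edgeR adjusted p under 0.05. Both colours appear in 6 lists, with 22 different genes higher and 19 lower, and the TALE list has 1 higher gene.

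Of 20 other neural plate and progenitor factors, 2 rose, 1 fell and 17 did not pass. Dmbx1, a homeobox gene of the early midbrain, had 1.02 and 1.03 CPM in deleted against 1.58, 1.62 and 1.64 CPM in wildtype libraries, a log2 fold change of −0.65 ± 0.13 (edgeR adjusted p = 0.00352). Nr2f2, an orphan nuclear receptor gene, had 15 and 18 counts in deleted against 5, 4 and 10 counts in wildtype libraries, a log2 fold change of 2.02 ± 0.39 (edgeR adjusted p = 0.00365), and was tested only through the deleted libraries. En1, a homeobox gene of the midbrain-hindbrain boundary, had 0.70 ± 0.18 (edgeR adjusted p = 0.0127). The En1 call was lost without deleted 1 or deleted 2 and in its most counted bin.

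Among 7 tested relatives of Meis1 and Pknox2 in the TALE class, 1 rose and 6 did not pass. Pbx4, whose product belongs to the PBX family that pairs with both, had 2.04 and 2.05 CPM in deleted against 1.39, 1.08 and 1.18 CPM in wildtype libraries, a log2 fold change of 0.75 ± 0.14 (edgeR adjusted p = 0.00290). The closest relatives of Meis1 had log2 fold changes of −0.28 ± 0.14 for Meis2 and −0.78 ± 0.27 for Meis3, with edgeR adjusted p = 0.153 and 0.0557.

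Of 29 proneural and neuronal transcription factors, 5 rose, 5 fell and 19 did not pass. Bcl11a, a zinc-finger factor gene of neurons and blood cells, stood at 0.674 ± 0.0597 CPM in deleted and 1.78 ± 0.0194 CPM in wildtype cells, a log2 fold change of −1.40 ± 0.14 (edgeR adjusted p = 0.000124). Satb1, a chromatin organizer gene, had 3.79 ± 0.222 CPM in deleted and 6.61 ± 0.385 CPM in wildtype cells, a log2 fold change of −0.80 ± 0.10 (edgeR adjusted p = 0.000302). Myt1l, a zinc-finger factor gene of neurons, had 21 and 35 counts in deleted against 2, 1 and 10 counts in wildtype libraries. Its log2 fold change was 3.32 ± 0.51 (edgeR adjusted p = 0.00104), and 4.40 without wildtype 3, and it was tested only through the deleted libraries.

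Of 15 neuronal cytoskeleton genes other than Map2, 1 rose, 2 fell and 12 did not pass. Cdk5r2, an activator gene of the neuronal kinase CDK5, had a log2 fold change of −0.90 ± 0.14 (edgeR adjusted p = 0.00136), Dpysl2, which encodes a tubulin-binding protein of growing axons, 0.39 ± 0.11 (edgeR adjusted p = 0.0249), and the neurofilament gene Nefm −0.70 ± 0.24 (edgeR adjusted p = 0.0480). The Dpysl2 call was lost without wildtype 2, deleted 1 or deleted 2. The Nefm call was lost under 10 of the 14 alternatives, among them without wildtype 1, deleted 1 or deleted 2. Dcx, a defining marker of young neurons, had 1 and 0 counts in deleted and 0, 0 and 1 counts in wildtype libraries. Rbfox3, a neuronal marker of the pan-neuronal list, had 49 and 50 counts in deleted against 106, 80 and 211 counts in wildtype libraries. It was lower in the deleted cells, at −0.73 ± 0.2 (edgeR adjusted p = 0.0178).

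Of 24 synaptic adhesion and organizer genes other than Mdga1, 4 rose, 3 fell and 17 did not pass. Lrfn5, which encodes a leucine-rich repeat adhesion protein of synapses, had 0.525 and 0.535 CPM in deleted against 0.217, 0.193 and 0.194 CPM in wildtype libraries, a log2 fold change of 1.40 ± 0.21 (edgeR adjusted p = 0.00101). The immunoglobulin-family adhesion genes Sdk2 and Nrcam had 1.06 ± 0.21 and 1.01 ± 0.22 (edgeR adjusted p = 0.00369 and 0.00627), and the Nrcam call was lost without deleted 2 (0.67; edgeR adjusted p = 0.0951). Tenm1, a teneurin gene, had 0.321 and 0.162 CPM in deleted against 0.635, 0.674 and 0.680 CPM in wildtype libraries, a log2 fold change of −1.47 ± 0.27 (edgeR adjusted p = 0.00260).

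Nell1, the paralog of Nell2, was lower in the deleted cells. It had 5 and 11 counts in deleted against 30, 25 and 42 counts in wildtype libraries, a log2 fold change of −1.36 ± 0.38 (edgeR adjusted p = 0.0201), lost without deleted 1 (−0.95; edgeR adjusted p = 0.161) and −2.01 without deleted 2. Nell1 was tested only through the wildtype libraries. In the list of NELL, ROBO and thrombospondin genes, 1 of 7 rose, 1 fell and 5 did not pass. The riser was Comp, a thrombospondin-family gene of cartilage matrix, at 1.11 ± 0.24 (edgeR adjusted p = 0.00584), and its call was lost without deleted 1 (0.99; edgeR adjusted p = 0.0615). Robo3, whose product is the NELL2 receptor, had 0.0735 CPM in deleted and 0.101 CPM in wildtype cells on average, a log2 fold change of −0.51 ± 0.46 (edgeR adjusted p = 0.420).

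Of 37 pan-neuronal RNA-binding and synaptic vesicle genes, 8 rose, 7 fell and 22 did not pass. Syt5, a synaptotagmin gene, had 2.24 and 2.24 CPM in deleted against 1.24, 1.13 and 1.06 CPM in wildtype libraries, a log2 fold change of 0.98 ± 0.12 (edgeR adjusted p = 0.000407). Elavl3, an RNA-binding protein gene of neurons, had 0.80 ± 0.12 (edgeR adjusted p = 0.00117). Th, the rate-limiting enzyme gene of catecholamine synthesis, stood at 0.155 ± 0.0375 CPM in deleted and 0.491 ± 0.0300 CPM in wildtype cells, a log2 fold change of −1.65 ± 0.25 (edgeR adjusted p = 0.00104). Syn2, a synapsin gene, had 3 and 1 counts in deleted against 27, 28 and 37 counts in wildtype libraries and was tested only through the wildtype libraries. Its log2 fold change was −3.25 ± 0.54 (edgeR adjusted p = 0.00167), with −4.24 without deleted 1 and −2.67 without deleted 2.

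Markers of other cell types that such a culture could hold were read in the same libraries. Of 21 fibroblast markers, 15 had rows and 8 were tested, of which 5 were higher, 1 lower and 2 not past the threshold. Together 75.0% passed, against 32.1% of all tested symbols, and 62.5% were higher, against 19.0%. The higher ones were Pdgfrb and the collagen genes Col1a2, Col5a2, Col6a1 and Col6a2. The summed level of the markers with rows was 13.8 and 14.2 CPM in deleted against 9.98, 10.5 and 13.2 CPM in wildtype libraries, without overlap. Fbn1 had the highest mean of these, with 6.22 and 6.13 CPM in deleted against 4.69, 4.99 and 6.90 CPM in wildtype libraries. The 4 named by p were Col1a2 at 0.92 ± 0.19, Pdgfra at −1.02 ± 0.22, Pdgfrb at 0.49 ± 0.12 and Col6a1 at 2.09 ± 0.52 (edgeR adjusted p = 0.00489, 0.00666, 0.00926 and 0.0118). Col6a1, with 9 and 22 counts in deleted against 4, 3 and 10 counts in wildtype libraries, was tested only through the deleted libraries. The first pair of these calls was lost without deleted 1 and the second pair without deleted 2. Dcn, a defining fibroblast marker, had 0 counts in both deleted libraries and 0, 0 and 3 counts in wildtype libraries, and Lum had 0 and 1 in deleted and 0 in each wildtype library. Col3a1 had 0 and 4 counts in deleted and 2, 2 and 4 counts in wildtype libraries. Col1a1 was well counted, with 88 and 87 counts in deleted and 97, 84 and 189 counts in wildtype libraries. Its CPM did not overlap, but its log2 fold change of 0.18 ± 0.16 did not pass (edgeR adjusted p = 0.39). Whether fibroblasts were present, and whether they had any part in the members' differences, was not tested.

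Of 22 glial markers, 16 had rows, Ermn being at 0 in every library, and 9 were tested. Of the tested ones 33.3% passed, against 32.1% of all tested symbols. Aldh1l1 and Cspg4 were higher at 0.44 ± 0.12 and 0.91 ± 0.29, and Gfap was lower at −0.68 ± 0.19 (edgeR adjusted p = 0.0164, 0.0340 and 0.0210). All 3 calls were lost without deleted 1, deleted 2 or wildtype 2, and those of Aldh1l1 and Cspg4 also without wildtype 1. Summed levels of the list overlapped, at 5.67 and 6.14 CPM in deleted and 5.27, 5.02 and 7.23 CPM in wildtype libraries. Nes, an intermediate filament gene of neural progenitors, had 1.63 and 2.12 CPM in deleted and 2.01, 1.86 and 3.6 CPM in wildtype libraries, and overlapped. Of 15 neural crest markers, 10 had rows and 5 were tested, of which 20.0% passed. Snai2 was lower at −0.81 ± 0.26 (edgeR adjusted p = 0.0347), a call lost under 8 of the 14 alternatives, among them without wildtype 2, wildtype 3, deleted 1 or deleted 2. The list summed to 9.21 and 8.81 CPM in deleted and 8.94, 8.63 and 9.38 CPM in wildtype libraries, most of it from Mitf.

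Genes with the profile most like each member over the 5 libraries were ranked by Euclidean distance between centred log2 CPM profiles, among tested symbols of like level. For Zfp521 the nearest of 1703 symbols were Sorbs2, Tktl2 and Il1rl2, at distances of 0.164, 0.173 and 0.188. For Nell2 they were the potassium channel gene Kcnj10, the BMP receptor gene Bmpr1b and the ion channel gene Cngb1, at 0.0954, 0.150 and 0.166. For Meis1 they were Adgrg5, Hoxc13 and Hist1h1a, at 0.0263, 0.0820 and 0.0953. Hoxc13, a HOX gene, had 0.795 CPM in deleted and 0.489 CPM in wildtype cells on average.

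Among the members that were lower, Pknox2 was nearest to the heat shock protein family gene Hspa12a, 9930014A18Rik and the kinase gene Stk39, at distances of 0.109, 0.127 and 0.128. Mdga1 was nearest to Gfra2, a GDNF-family receptor gene, at 0.169, then to the splicing regulator gene Celf2 at 0.196 and to Mrc2 at 0.221. Otx1 was nearest to Nsg2, Gadd45g and Tnfaip8l3, at 0.128, 0.144 and 0.150, and Map2 to Ankrd13b, Mlkl and Golga1, at 0.111, 0.121 and 0.129. With 5 libraries in 2 groups these distances mostly reflect the size of the group difference.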

How the data were processed

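Polyadenylated RNA of 2 deleted and 3 wildtype libraries was sequenced. The authors deposited raw read counts per exon bin as 1 table of 5 libraries. The submitters' processing notes name STAR and mm9. The deposited counts are named as DEXSeq exon counts. Which counting program, annotation and strand setting were used is not given in the sources used here, so reads of overlapping or antisense genes may be mixed. A read spanning several bins may be counted in each, and counting error is the only error that depth covers.

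Bin counts were summed per gene, leaving out 56 spike-in names. After filterByExpr and TMM scaling, 16259 genes entered edgeR's quasi-likelihood test with a robust prior, and p-values were adjusted over all of them by Benjamini-Hochberg (R 4.3.3, edgeR 4.0.16, limma 3.58.1). Log2 fold changes are deleted minus wildtype. Members, lists and tests were chosen with earlier results of these data known. Named genes are the members, up to 4 genes past the threshold per list by p, the most abundant markers and the 3 nearest profiles per member (prior count 2, mean log2 CPM within 2). A gene that this rule names is not reported here. Exon structures came from GENCODE vM21, which is of another build than the counts and was used for exon number and length only, and for the coordinates of sequences read from it. Alternatives covered normalization, low-count filters, each gene's most counted bin, DESeq2 1.42.0 and limma-voom as other tools, the replicate block, each library left out and, added after seeing the data, a non-robust prior.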

Additional observations from a re-analysis of the deposited data

How the results depend on the processing

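Over the 14 alternatives (13 for Otx1, which had too few counts for the filter of at least 10 in every library), no member's log2 fold change changed sign. It moved by more than the spread between replicates for Meis1 in its most counted bin (0.14) and for Otx1 without deleted 1 (−1.37) or deleted 2 (−0.73). Across all genes 3245 were higher and 3208 lower. These counts ranged from 1837 to 4197 and from 1718 to 4150 when 1 library was left out, lowest without deleted 1 in both directions, the lone deleted library then being assumed to vary like the wildtype ones. Neural and neuronal list genes called ranged from 12 to 25 higher and from 10 to 20 lower with 1 library left out, and 14 were higher in the most counted bin, where 99 rather than 138 were tested. With at least 10 counts in every library, 12 member bins were left, 9 higher and 1 lower without overlap. This filter mostly removes bins that are low in the deleted libraries, which are the shallowest. It left 5 bins of Nell2, 3 each of Zfp521 and Map2, 1 of Pknox2 and 0 of Mdga1, Otx1 and Meis1. Its counts of higher and lower bins therefore cannot be compared with each other.

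Replicate numbers 1 and 2 occur in both groups, but the labels do not say that they mark a shared culture or day. Deviations from the group means correlated at 0.0536 between deleted 1 and wildtype 1 and at −0.0539 between deleted 2 and wildtype 2. With 2 deleted libraries the deviations of one mirror those of the other, so their signs are opposite by construction. Between libraries of unlike number, deleted 1 correlated at 0.0539 with wildtype 2 and at −0.0941 with wildtype 3. With the replicate block, which leaves wildtype 3 without a partner, 4203 genes were higher and 3997 lower, and 25 and 19 of the list genes. Low counts limit Otx1, Meis1 and single bins most.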
